A study of Mus musculus with 10 samples.

Results

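Of the 32293 H3K4me3 regions in the deposited table, 852 held more H3K4me3 in cells of both mutant constructs, WWD and R, than in WT cells (2.64% of the regions). They were chosen by their H3K4me3 reads: at least 10 reads per 10000000 library reads in both WWD and R, and a WT value of at most 1/2 of each. H3K4me3 was measured by ChIP-seq in J1 mouse embryonic stem cells labelled Dnmt TKO, at passage 7 to 10, with 1 library per construct labelled as line 1. All cells expressed a Dnmt3a2 protein: WT Dnmt3a2, WWD Dnmt3a2 or R Dnmt3a2, where WWD and R are mutants from a study that engineered the histone-recognition domain of the enzyme. Dnmt3a2 itself was profiled with a FLAG antibody in 2 samples per construct, line 1 and a bulk population, and the tables held 1 Dnmt3a2 column per construct, which may hold either sample or both. No H3K4me3 library from cells without a Dnmt3a2 construct was used here, so all comparisons are between constructs, and with 1 library each there was no replicate check and no test. The labels do not say whether line 1 is a single clone.

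H3K4me3 is a histone mark placed at active and poised promoters, where it marks the nucleosomes that flank the transcription start site. Dnmt3a2 is the short form of the de novo DNA methyltransferase Dnmt3a and is abundant in embryonic stem cells. Its ADD domain binds the histone H3 tail when lysine 4 is unmodified, and methylation of that lysine prevents this binding, which is the link between the mark and the enzyme. Cells labelled Dnmt TKO are mouse embryonic stem cells that lack the DNA methyltransferases Dnmt1, Dnmt3a and Dnmt3b.

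The H3K4me3 library totals were 18801269 (WT), 26012284 (WWD) and 27424019 (R), so the fewest reads that met the minimum were 27 in WWD and 28 in R. Within the 32293 regions lay 11.1% of all WT reads, 9.87% of WWD reads and 9.29% of R reads. Each library was scaled to its total, and this choice bears on the count. By the same rule turned around, 2274 regions (7.04%) held at least 10 in WT and at most 1/2 of it in both mutants, so regions higher in both mutants were 27.3% of both sets together. With each library scaled to its reads in the regions, which raised WWD by 0.17 and R by 0.25 on the log2 scale relative to WT, 1318 regions were higher in both mutants and 1693 were lower, and the share was 43.8%.

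H3K4me3 at the 852 regions ranged in WT from 0 to 103 reads per 10000000, with a median of 6.91 (13 reads). In WWD it ranged from 10.4 to 252, with a median of 24.6 (64 reads), and in R from 10.2 to 220, with a median of 26.8 (73.5 reads). The ranges of the 3 libraries overlapped over the regions as a set, while at each region WT lay below both mutants, which the rule requires. With WT reads raised to a floor of 3 reads, the median fold over WT was 3.30 in WWD and 3.52 in R. At 224 of the regions both mutants were at least 4-fold above WT, and at 29 both were at least 10-fold above. These values chose the regions and are given as a description. Because both mutants are compared with the same WT library, they are not independent, and among all regions 8.21% passed the rule for WWD alone and 9.72% for R alone.

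**Figure D1:**
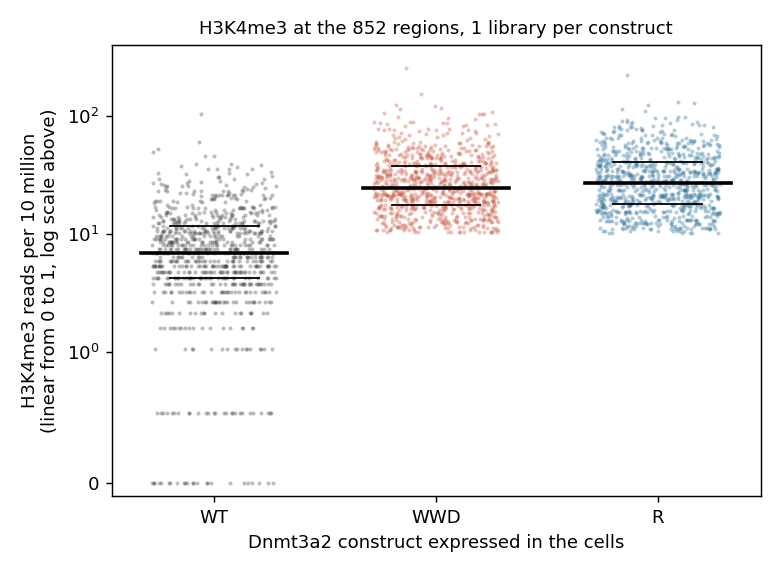
H3K4me3 in reads per 10000000 (linear from 0 to 1, log scale above) at each of the 852 regions, 1 point per region and 1 library per construct, with thick lines at the medians and thin lines at the quartiles. The medians are 6.91 (WT), 24.6 (WWD) and 26.8 (R), and 24 regions lie at 0 in WT.

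The regions were of middling H3K4me3. Ordered by mean H3K4me3 of the 3 libraries, 392 of the 852 lay in the middle quintile of all regions, 236 in the quintile below it and 184 in the quintile above it. Only 40 lay in the top quintile and 0 in the bottom one, which the minimum of the rule leaves almost out of reach. The other 16350 regions that reached 10 in both mutants had medians of 47.9 (WT), 42.3 (WWD) and 39.7 (R). The mutant levels of the 852 regions were thus below those of the other regions with a clear mark, and their WT level was further below. The rule asks for a low WT value, which also lowers the mean used for the ranking. Ranking and levels rest on the values that chose the regions and are a description only.

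The strongest mutant signal was at chr1:34496977-34497076 (mm9, as all coordinates here), where WT held 194 H3K4me3 reads, WWD 656 and R 602. Per 10000000 these were 103, 252 and 220, so WWD was 2.44-fold above WT (counting interval 2.08 to 2.88) and R 2.13-fold (1.81 to 2.51). At chr2:165635807-165635906 WT held 112 reads, WWD 400 and R 340. Among these strongly marked regions WT was clearly marked too, and both mutants were higher by between 2 and 5 times. At chr5:107788647-107788746 WT held 86, WWD 271 and R 359. At chr13:110475900-110475999 WT held 52, WWD 320 and R 228, and the folds over WT were the largest of the 8 strongest regions, at 4.45 in WWD (3.31 to 6.08) and 3.01 in R (2.22 to 4.15). These intervals, like all those given for single regions, are 95% intervals that cover counting error only and make no allowance for the choice of regions by these values.

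At the other end were regions with almost no WT signal. In WT 24 of the 852 held 0 reads, while the same regions held 27 to 81 reads in WWD and 29 to 91 in R. A count of 0 allows up to 3 reads, or 1.60 per 10000000 in WT. Against this floor the lowest fold among the 24 was 6.51 in WWD and 6.63 in R, with no allowance for counting error in the mutants. At chr7:86543051-86543150 each mutant held 77 reads and WT 0, which against the floor was 18.6-fold higher in WWD and 17.6-fold higher in R. The lower counting bounds of these folds over WT were 14.7 and 14.0. At chr10:76663626-76663725 WWD held 63 and R 91, again with 0 in WT. In R both of these lay above the median of the 852 regions, while no WT read was detected. At chr6:58856640-58856739 WT held 1 read, WWD 79 and R 128, so R was 87.8 times WT, and the single WT read left a counting interval from 15.5 to 3493.

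The regions just inside and just outside the rule were alike. The region chr19:42056917-42057016 was inside with 26 WT reads (13.8 per 10000000), 72 in WWD (27.7) and 129 in R (47.0). The region chr11:60835474-60835573 was outside with 17 WT reads (9.04), 47 in WWD (18.1) and 64 in R (23.3). WT over the smaller mutant rounded to 0.50 at the 4 regions nearest to the bound on each side. Over the 852 regions the lower counting bounds of both folds were above 1 at 848 and above 2 at 236 (27.7%). For the remaining regions a fold below 2 in at least 1 mutant lies within counting error.

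The mutants were close to each other at these regions. WWD over R had a median of 0.975 and quartiles of 0.713 and 1.25, with WWD higher at 406 regions and R higher at 446. A difference of at least 2 times between the mutants was found at 46 regions with more in WWD (5.40%) and at 61 with more in R (7.16%). Among the other regions with both mutants at 10 or more the shares were 13.4% and 10.4%. The rule sets the same lower bound, 2 times WT, for both mutants, which by itself brings them together, so these values describe the regions only. Extremes were a WWD over R of 0.212 and of 3.47.

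**Figure D2:**
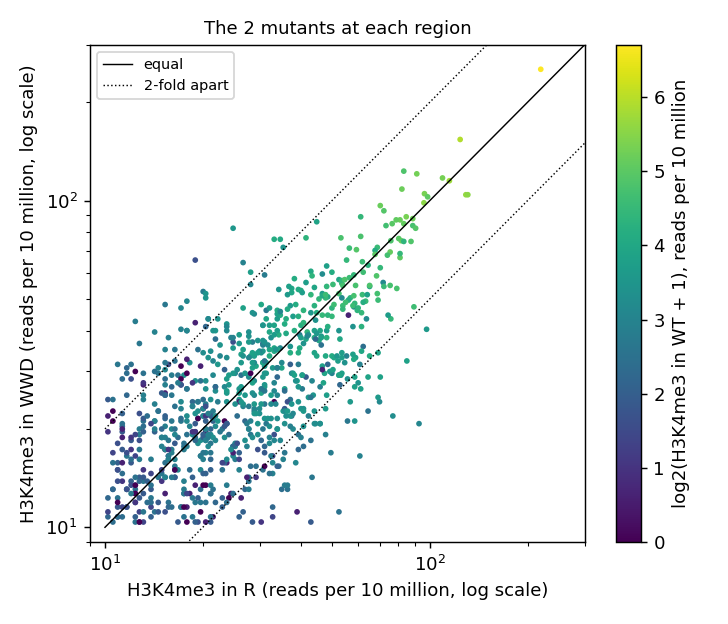
H3K4me3 in R (x axis) against WWD (y axis), in reads per 10000000 on log scales, for the 852 regions coloured by log2 of the WT level plus 1. Points gather around the line of equal levels with dotted lines at a difference of 2 times, which 46 regions reach with more in WWD and 61 with more in R.

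Each region is 100 bp long, and most neighbouring regions did not share the difference. Chromatin had been cut with micrococcal nuclease and sonicated to fragments longer than a region. Another region of the H3K4me3 table lay within 2 kb of 498 of the 852 regions, and these neighbours numbered 769. Their median H3K4me3 was 26.6 (WT), 24.6 (WWD) and 21.2 (R), so neighbours had more in WT than in the mutants, as did the table as a whole (21.8, 19.6 and 17.5). The sum over neighbours gave WWD over WT of 0.888 (0.878 to 0.899), against 0.891 over all regions of the table. For R over WT it gave 0.847 (0.838 to 0.857), against 0.838 over all regions. Both mutants were above WT at 173 of the 769 neighbours (22.5%), compared with 18.7% of all regions. With neighbours that met the rule themselves left out, the share was 19.5%. The 18.7% of all regions includes the 852, which all count towards it by the rule, so it is not a like background for the 19.5%. The 498 regions themselves had medians of 7.98 (WT), 25.8 (WWD) and 28.4 (R). In the mutants they thus stood near or above the level of their neighbours, and in WT, as the rule favours, well below it.

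Taken by distance, neighbours gave a like picture. The 75 neighbours within 250 bp had medians of 29.3 (WT), 24.6 (WWD) and 17.9 (R), and the 185 neighbours over 1000 and up to 2000 bp away had 23.9, 23.8 and 18.6. A region was the highest of its surroundings within 2 kb in WWD at 50.6% of the 498 (46.1 to 55.1) and in R at 53.0% (48.5 to 57.5), but in WT at 17.1% (13.9 to 20.7). For the other regions with both mutants at 10 or more these shares were 51.2%, 52.1% and 51.1%. The low WT share follows from the rule, which asks for a low WT value, whereas the mutant shares were those of other regions with a clear mark. Summed with all neighbours within 2 kb, both mutants were at least 2 times WT at 94 of the 498 places (18.9%), against 0.317% of such places around the other regions with both mutants at 10 or more. This sum holds the region itself, whose values the rule used. The regions with more H3K4me3 in WT had neighbours with medians of 26.1 (WT), 21.9 (WWD) and 19.7 (R), so they too differed from their neighbours, which kept the order of the table.

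**Figure D3:**
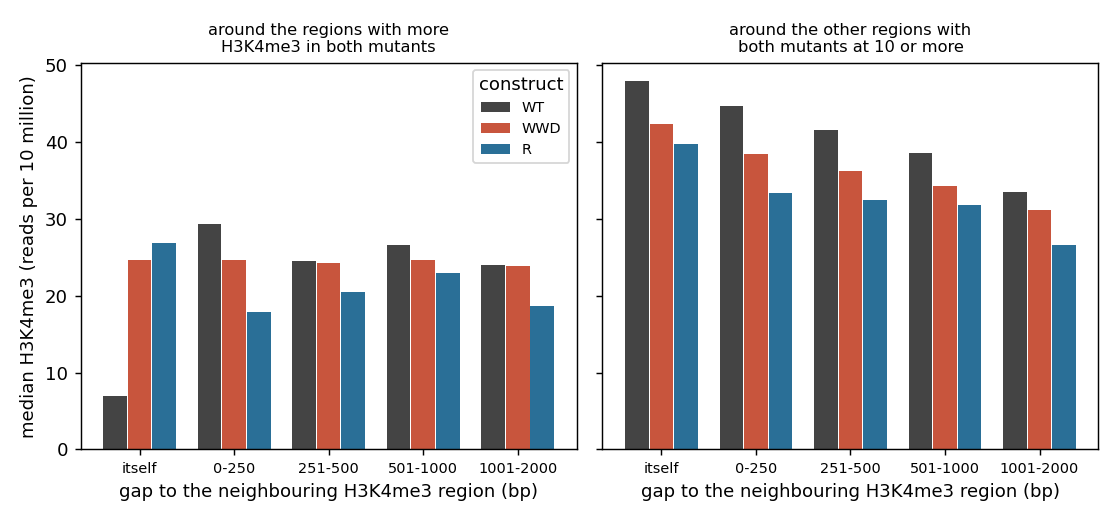
Median H3K4me3 in reads per 10000000 (y axis) at the regions themselves and at neighbouring H3K4me3 regions by the gap in bp (x axis), for the 852 regions (left) and the other 16350 regions with both mutants at 10 or more (right), with 1 bar per construct. On the left WT is low only at the regions themselves (6.91), and at a gap of up to 250 bp it is 29.3, above both mutants.

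Few of the regions formed runs. With gaps of at most 1000 bp, 829 of the 852 stood alone, 10 pairs were found and 1 run of 3. In the run, WT held 9 reads at chr12:68321961-68322060, WWD 32 and R 30. At chr12:68322768-68322867 the reads were 20, 64 and 71, and at chr12:68323404-68323503 they were 8, 38 and 31. Over the run the mutants were 2.29 to 3.43 times WT, and none of its regions held a Dnmt3a2 read in any construct. Of all H3K4me3 regions only 2.64% met the rule, and the number of runs that this share would give was not computed. Of the 498 regions with another H3K4me3 region within 2 kb, the nearest one met the rule too at 15.

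In their position relative to the other tables the 852 regions were near the shares of all H3K4me3 regions for H3K4me1 and H3K4me2. Against the other regions with both mutants at 10 or more they were lower for H3K4me2 and higher for H3K4me1. An H3K4me2 region, from a table named after the mark often found beside H3K4me3 and at enhancers, lay within 500 bp of 409 of them (48.0%, 44.6 to 51.4), against 47.0% of all regions and 55.4% (54.6 to 56.2) of the other regions with both mutants at 10 or more. An H3K4me1 region, from the table named after a mark typical of enhancers, lay within 500 bp of 25 (2.93%, 1.91 to 4.30). The share was 2.95% of all regions and 1.57% (1.39 to 1.77) of the other regions with both mutants at 10 or more. By WT level it was 6.29% against 5.20% of other regions with WT under 5, and 2.15% against 4.76% from 5 to 10. It was 0% (0 to 1.74) against 3.43% (2.94 to 3.97) from 10 to 20, and 1.30% against 1.63% at 20 or more. The intervals overlapped in each class except from 10 to 20, where the share of the 852 regions was the lower. Another H3K4me3 region lay within 500 bp of 296 (34.7%, 31.5 to 38.0), against 39.6% of all regions and 47.8% of the other regions with both mutants at 10 or more. They were thus more solitary than the latter, whose WT level was higher. By WT level the share went both ways: it was 24.1% against 21.6% of other regions with WT under 5, 38.7% against 33.3% from 5 to 10, 42.9% against 37.8% from 10 to 20, and 37.7% against 48.3% at 20 or more. The intervals overlapped in each of these 4 classes. Of the 286 regions with WT under 5, 39.9% had an H3K4me2 region within 500 bp (34.1 to 45.8), against 28.7% of 6363 others (27.6 to 29.9), and from 5 to 10 it was 48.0% (42.0 to 54.1) of 279 against 39.9% (38.1 to 41.6) of 3108. In neither of these classes did the intervals overlap, whereas they did at 10 to 20 (53.8% against 46.3%) and at 20 or more (62.3% against 55.3%). The others in these classes had no minimum in the mutants, and among them the share rose with WT level from 28.7% to 55.3%. The classes thus match the regions by WT level only. The part of the mutant minimum in these differences was not tested. Regions near an H3K4me2 region had a WT median of 7.98 and those not near one 6.38, with mutant medians of 26.9 against 23.1 in WWD and 29.2 against 24.8 in R.

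Dnmt3a2 reads took no part in the choice of the regions and give an independent readout at them. A Dnmt3a2 read was present at 109 of the 852 regions in WT (12.8%, exact interval 10.6 to 15.2), against 9.89% of all regions. In WWD it was present at 209 (24.5%, 21.7 to 27.6), against 25.5%, and in R at 101 (11.9%, 9.76 to 14.2), against 9.79%. A WWD read was thus present at these regions about as often as at H3K4me3 regions in general. The WT share lay above the background, and the lower bound for R fell just below its background. A read is not a called binding site, and the input was not analysed. At 499 of the regions (58.6%) no construct had a read, at 290 just 1 did, at 60 a pair did and at 3 all did.

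The WT share differed between levels of WT H3K4me3. Among the other regions with both mutants at 10 or more, whose WT median was 47.9, 7.73% held a WT Dnmt3a2 read (7.33 to 8.15). Against regions of like WT H3K4me3 the shares were close in 3 of 4 classes and apart in the highest one. With WT under 5, it was 16.8% (12.6 to 21.6) at 286 of the regions and 14.8% (13.9 to 15.7) at the others of that level. From 5 to 10 it was 10.8% (7.37 to 15.0) and 12.4% (11.3 to 13.6), and from 10 to 20 it was 9.52% (5.91 to 14.3) and 9.61% (8.82 to 10.5). At 20 or more, with 77 of the regions, it was 14.3% (7.35 to 24.1) and 7.53% (7.14 to 7.94). In each of the 4 classes the interval of the regions overlapped that of the others, and the same was true for WWD and for R. For WWD the share was 28.3% against 29.6% at a WT H3K4me3 under 5, and for R it was 13.6% against 13.5%. These classes were chosen after the values were seen, and the others in them had no minimum in the mutants.

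**Figure D4:**
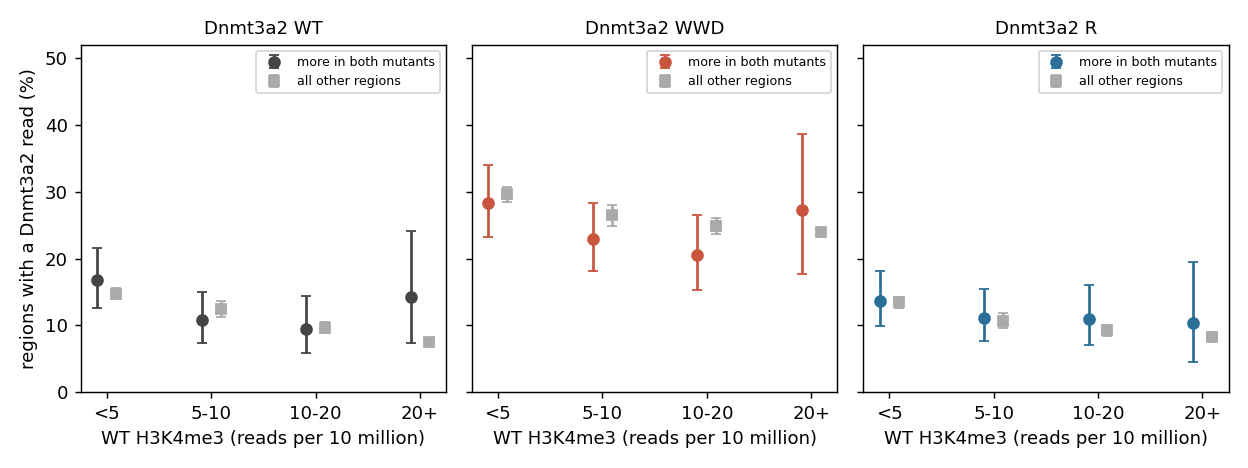
Share of regions with a Dnmt3a2 read in percent (y axis) by WT H3K4me3 in reads per 10000000 (x axis) for the 3 constructs, with the 852 regions as coloured circles, all other regions as grey squares, and exact 95% binomial intervals as bars. The bars of both sets overlap in each class. At the 852 regions WT falls from 16.8% at a WT H3K4me3 under 5 to 9.52% at 10 to 20, and is 14.3% at 20 or more.

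Mean Dnmt3a2 signal at the 852 regions was 0.238 reads per region per 10000000 in WT (486 reads), 0.485 in WWD (713 reads) and 0.218 in R (470 reads). WWD was 2.04-fold above WT (counting interval 1.82 to 2.30) and 2.22-fold above R (1.97 to 2.50), and R was 0.920 times WT (0.808 to 1.05). Among the other regions with both mutants at 10 or more, WWD was 3.36-fold above WT (3.26 to 3.47) and R 1.21-fold (1.17 to 1.26). At regions with more H3K4me3 in WT than in both mutants, these ratios were 2.93 (2.70 to 3.18) and 1.05 (0.955 to 1.15). The WWD excess was thus smaller at the 852 regions than in both of these sets. WT signal was 0.238 at the 852 and 0.133 at the other regions with both mutants at 10 or more. WWD signal was 0.485 and 0.449. At all other regions WT signal was also lower where WT H3K4me3 was higher, from 0.269 under 5 to 0.131 at 20 or more. By WT H3K4me3, WWD over WT was 1.64 at the regions against 2.26 at all others under 5. It was 2.33 against 2.42 from 5 to 10, 2.68 against 2.87 from 10 to 20, and 1.96 against 3.38 at 20 or more. The intervals overlapped from 5 to 10 and from 10 to 20 only. Reads came in clumps, with 4.46 (WT), 3.41 (WWD) and 4.65 (R) reads per region that had any, so these counting intervals are too narrow and the shares above are the safer measure. With both mutants at 20 or more, which kept 454 of the regions, WWD was 2.60-fold above WT and R 1.22-fold. The ratios rest on total reads: set against all Dnmt3a2 reads at H3K4me3 regions, which were 0.158% of the WWD library and 0.0563% of the WT library, WWD over WT at these regions was 0.729.

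By single regions, Dnmt3a2 of at least 3 reads in WWD and at least 2-fold above WT was seen at 103 of the 852 (12.1%, background 12.3%). The reverse, at least 3 reads in WT and at least 2-fold above WWD, was seen at 60 (7.04%, background 5.04%). For R over WT it was 56 (6.57%, background 5.91%), and for WT over R 76 (8.92%, background 5.9%). Between the mutants, WWD over R was seen at 109 (12.8%, background 12.2%) and R over WWD at 53 (6.22%, background 5.16%). Gains of Dnmt3a2 reads in either mutant over WT were therefore near the background. The counts with more WT reads exceeded it by more. These counts were not compared by WT level of H3K4me3.

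Several of the regions with the most Dnmt3a2 reads in a construct had none in the others. Reads came in clumps, PCR copies, if kept, count as separate reads, and the input was not analysed. These counts thus do not by themselves show binding particular to a construct. In WT the most reads outside chromosome 18 were 11, at chr9:53056410-53056509 and at chr2:154395953-154396052, both with 0 in WWD and R. At the latter, H3K4me3 reads were 46 (WT), 218 (WWD) and 201 (R). In WWD the most were 14, at chr4:145695902-145696001, with 0 in WT and R, beside H3K4me3 reads of 50 (WT), 202 (WWD) and 168 (R). In R the most were 21, at chr13:78337347-78337446, with 0 in WT and WWD, and H3K4me3 reads of 33, 115 and 108. At these the H3K4me3 folds of both mutants were near each other, but not at all regions with many WWD enzyme reads. At chr12:12795357-12795456, with 13 WWD enzyme reads, H3K4me3 was 2.03 times WT in WWD and 3.96 times in R, and at chr5:118728464-118728563, with 12, it was 2.47 and 5.01 times. At chr4:59075498-59075597 both mutant enzymes had reads and WT had 0, with 11 in WWD and 10 in R. H3K4me3 there was 5 reads in WT, with WWD at 95 and R at 84.

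At 3 regions all constructs had Dnmt3a2 reads. At chr10:21699608-21699707 WT had 1, WWD 4 and R 1, beside H3K4me3 reads of 7, 75 and 93. At chr13:3892087-3892186 they had 5, 1 and 1, beside 5, 56 and 36. At chr4:133343437-133343536 they had 6, 5 and 1, beside 1, 63 and 71. At the last, H3K4me3 was nearly absent in WT, with 1 read beside 6 reads of the WT enzyme, and H3K4me3 was above 24 per 10000000 in both mutants. Over all 852 regions, those with a WT Dnmt3a2 read had a median WT H3K4me3 of 5.85 and those without one 7.45, with mutant medians of 22.7 against 25.4 in WWD and 23.3 against 27.7 in R.

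Dnmt3a2 at nearby regions of the H3K4me2 table gave a further reading from other positions. Of these, 447 lay within 500 bp of 1 of the 852 regions. A WT read was present at 8.95% of them (6.47 to 12.0), a WWD read at 24.4% (20.5 to 28.6) and an R read at 12.8% (9.80 to 16.2). At 13304 H3K4me2 regions near other H3K4me3 regions the shares were 11.9%, 25.4% and 12.2%. The higher WT share seen at the regions themselves was therefore not seen at these positions beside them, where the intervals of both groups of H3K4me2 regions overlapped for each construct. By summed reads, R over WT was 1.56 (1.27 to 1.91) at the 447 and 1.13 (1.09 to 1.17) at the 13304. Here too reads came in clumps, with 4.54 R reads per region that had any at the 447. The intervals of these sums are therefore too narrow, and the shares are the safer measure.

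The regions were spread over all autosomes and chromosome X. Their share of the H3K4me3 regions was lowest on chromosome 8, with 28 of 1604 (1.75%, 1.16 to 2.51), and highest on chromosome X, with 37 of 1012 (3.66%, 2.59 to 5.004), and on chromosome 2, with 86 of 2444 (3.52%, 2.82 to 4.33). On the other chromosomes with more than 1 region it ranged from 2.11% to 3.36%, and the interval held the overall 2.64% on each of them. The intervals were not adjusted for the number of chromosomes compared. Mean WT H3K4me3 was 46.4 reads per region per 10000000 on chromosome 8 and 18.96 on chromosome X, both outside the 30.6 to 37.9 of the other autosomes. On chromosome 2, the only one whose interval lay above 2.64%, it was 34.7, near the 34.3 of all regions. The part of the WT level in the shares was not tested. Regions with more H3K4me3 in WT made up 7.04% on chromosome 8, 6.23% on chromosome X and 6.75% on chromosome 2, so chromosome 8 was low in 1 direction and at the background in the other.

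**Figure D5:**
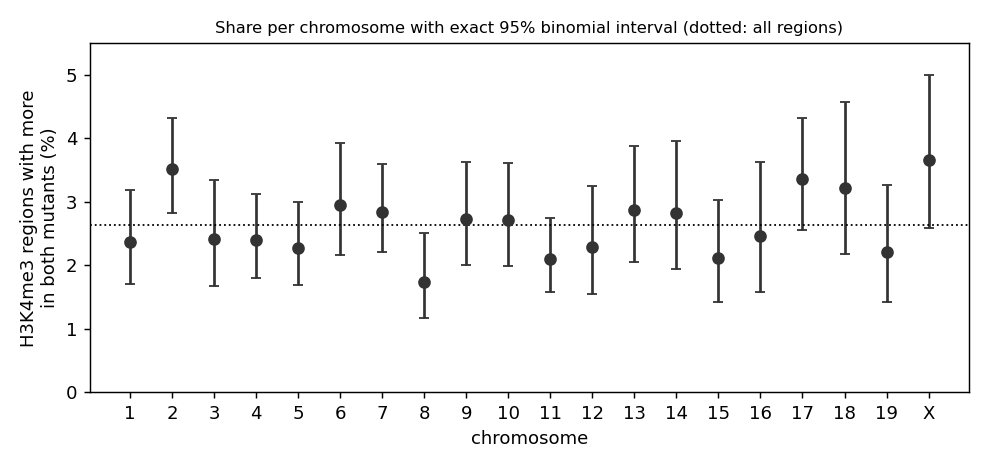
Share of the H3K4me3 regions of each chromosome that had more H3K4me3 in both mutants, in percent (y axis), by chromosome (x axis), with exact 95% binomial intervals as bars and a dotted line at 2.64% for all regions. The bars lie below the line on chromosome 8 (1.75%) and above it on chromosome 2 (3.52%), and chromosome X has the highest share (3.66%) with a bar that reaches down to the line.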

How the data were processed

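H3K4me3 and Dnmt3a2 were measured by ChIP-seq. The submitters' processing notes name Bowtie and mm9. How reads were filtered and regions called was not stated there or in the headers. Values in the deposited tables are log2 of scaled reads per region, and the file headers give a total for each column. Whole reads were recovered as the whole part of (2 to the deposited log2 value, minus 1) over the scaling factor, and divided by the total. At the 852 regions rounding to 2 decimals left an uncertainty of at most 2.28 reads. Another 2 columns match none of the samples and were left out, and the input was not analysed here. Distances are gaps between region edges. Shares have exact Clopper-Pearson intervals and ratios of reads exact conditional binomial intervals, all at 95%. They cover counting error only and make no allowance for differences between libraries of a construct. PCR copies of a molecule, if kept, would be counted as separate reads. The form of the deposited values, with a random part added to the reads, was inferred and not stated. The decoding was tested on data simulated in that same form, so the test cannot show that the form holds. Members, lists and comparisons were chosen with earlier results of these data known. Named regions were the 8 strongest, the 8 with the lowest WT (floor of 3 reads) against the smaller mutant, the 4 nearest the bound on each side, the 5 with the most Dnmt3a2 reads per construct (the fifth place was tied in each, and not all tied regions were taken), those with reads in all constructs and runs of 3, of which examples are given; none is named on chromosome 18. Gene names and sequences are not given, because the gene and promoter tables at hand are on another assembly than mm9. Python 3.11.15, numpy 2.4.6, pandas 2.3.3, scipy 1.17.1 and matplotlib 3.10.9 were used.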

Additional observations from a re-analysis of the deposited data

Results flagged for a closer look

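At the 852 regions mean Dnmt3a2 signal went in opposite directions in the mutants, at 2.04 times WT in WWD and 0.920 times WT in R. The interval for R included 1 (0.808 to 1.05), each construct had 1 column, and the difference between the mutants was not tested. Over all regions WWD was 2.80 times WT and R 1.07 times, so the WWD value here was the lower. Both mutants lay on the same side of WT under other settings: 0.729 and 0.861 when scaled to Dnmt3a2 reads of all H3K4me3 regions, 2.60 and 1.22 with a minimum of 20, and 2.25 and 1.02 with WT at most 1/3.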

How the results depend on the processing

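For 12 results 58 alternatives were computed: 28 gave a like value, 29 moved it beyond its interval (or a count by over 1.5 times) and 1 turned its direction. No paired analysis was possible because there was a single column for each construct and assay, and left-out libraries were not run for the same reason. The alternatives for regions with less H3K4me3 in both mutants and for neighbours were chosen after seeing the data. The regions with more H3K4me3 in both mutants numbered 1285 with a minimum of 5, 454 with 20, 381 with WT at most 1/3, 1735 with WT at most 2/3 and 1318 scaled to reads in regions. Those with less numbered 1423 with a minimum of 20, 993 at 1/3 and 4582 at 2/3. WWD over WT of Dnmt3a2 was 0.729 scaled to Dnmt3a2 reads of all H3K4me3 regions, where the common WWD excess is taken out, 1.74 with deposited values and 2.60 with a minimum of 20, where R over WT was 1.22. Near an H3K4me1 region were 0%, 7.98% and 15.5% at 0, 1000 and 2000 bp, and 4.46% with WT at most 1/3. Near an H3K4me2 region were 0%, 56.3% and 61.7%. Near another H3K4me3 region were 0%, 52.5% and 58.5%, and 27.8% with WT at most 1/3. At 0 bp the share was 0% for all 32293 regions too, and a longer distance can only raise a share. The direction of these distance alternatives, all counted among the 29 that moved, was therefore fixed in advance. At least 2 Dnmt3a2 reads were at 17.8% in WWD and 8.10% in R. At neighbours WWD over WT was 0.866 without members, 0.929 with WT at most 1/3 and 0.870 with a minimum of 20, and R over WT was 0.822 and 0.866 with the first 2 settings.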
